A study of Mus musculus with 72 samples.

Results

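The 37 genes described here carry B cell identity and B cell receptor signalling, and they were read in Eμ-Myc lymphoma, a B-lineage tumour of mice whose Myc transgene is driven by an enhancer of the immunoglobulin heavy chain locus. The members were listed by name: the heavy chain constant genes Ighm and Ighd, the receptor signalling chains Cd79a and Cd79b, 11 surface receptors, 14 transcription factors and 8 kinases and adaptors. All 37 were found among the 38951 gene names of the 4 count tables, and all were tested in both acute fractions and in the relapse input. In the relapse polysomal RNA 36 passed the filter on low counts, the exception being Cxcr5.

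In the acute experiment, cells of lymphoma clone 4242 carrying an MSCV Gfp vector grew in C57BL/6 mice, and on day 10 after transplantation lymph nodes were taken 2 h after dosing. The 4 groups of 6 mice received vehicle, 35 mg/kg of CX5461, 5 mg/kg of everolimus, or the combination of both. In the relapse experiment, mice carrying clone 107 lymphoma were treated until disease endpoint, and cell lines kept for 2 to 3 passages were made from their lymph nodes. Lines from vehicle mice are called naive (lines 6, 33 and 38), and 3 lines each came from mice on CX5461 (14, 20 and 39), everolimus (4, 12 and 26) and the combination (8, 9 and 31). CX5461 is an inhibitor of ribosomal RNA synthesis by RNA polymerase I, and everolimus is a rapamycin analogue that blocks mTORC1 signalling. Cytoplasmic RNA (input) and RNA on at least 4 ribosomes (polysomal) were sequenced for every mouse and line, giving 72 libraries. The lymphoma cells of every group carried the Myc transgene, which host cells of the nodes did not, and each experiment rests on 1 lymphoma clone, so other clones are not sampled.

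The B cell receptor is a membrane immunoglobulin paired with the CD79A and CD79B chains, which recruit the kinases LYN, BLK, SYK and BTK and the adaptor BLNK to activate PLCγ2 and PI3 kinase. EBF1, E2A (Tcf3), PAX5 and FOXO1 set up and hold the B lineage, IKZF1 and IKZF3 act in its maturation, and the Ets factor SPI-B, the octamer factor OCT2 (Pou2f2) and its coactivator OBF1 (Pou2af1) support receptor genes in mature B cells. BAFF receptor (Tnfrsf13c) and TACI (Tnfrsf13b) bind the survival cytokine BAFF, and CXCR4 and CXCR5 guide B cells within lymphoid tissue.

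Promoter sequence is shown for 4 of the members called in drug comparisons, chosen after their values were seen, to place them in the genome and to show motifs of B cell factors that are themselves members or, as for the PU box, bound by SPI-B and its relatives. Each run is the 250 bases before the RefSeq gene start in GRCm38.p6, 5′ to 3′ on the gene's strand. Capitals mark the motif named.
Tnfrsf13c, chr15:82224381-82224630, minus strand, E box CAGGTG from 96 to 91 bases before the start: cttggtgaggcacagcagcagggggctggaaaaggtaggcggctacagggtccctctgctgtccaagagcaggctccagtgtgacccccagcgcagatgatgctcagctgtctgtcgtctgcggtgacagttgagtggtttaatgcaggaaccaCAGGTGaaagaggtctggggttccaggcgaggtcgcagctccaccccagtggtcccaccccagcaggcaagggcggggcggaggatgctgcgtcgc
Spib, chr7:44532072-44532321, minus strand, CCCNNGGG palindrome of the kind bound by EBF1, with 2 overlapping matches from 65 to 57 bases before the start: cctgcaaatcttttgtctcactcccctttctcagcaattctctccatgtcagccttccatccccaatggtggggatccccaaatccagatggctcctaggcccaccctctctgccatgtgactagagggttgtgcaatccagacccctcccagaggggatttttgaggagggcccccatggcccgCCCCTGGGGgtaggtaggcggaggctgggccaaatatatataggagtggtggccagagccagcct
Blnk, chr19:40994222-40994471, minus strand, octamer ATGCAAAT on the opposite strand from 130 to 123 bases before the start: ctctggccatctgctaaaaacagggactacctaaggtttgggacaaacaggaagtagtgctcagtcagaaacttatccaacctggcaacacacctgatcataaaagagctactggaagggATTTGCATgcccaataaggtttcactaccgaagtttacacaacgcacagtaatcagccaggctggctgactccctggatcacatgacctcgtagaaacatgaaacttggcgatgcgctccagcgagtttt
Faim3, listed by RefSeq as Fcmr, chr1:130865527-130865776, plus strand, PU box GAGGAA on the opposite strand from 36 to 31 bases before the start: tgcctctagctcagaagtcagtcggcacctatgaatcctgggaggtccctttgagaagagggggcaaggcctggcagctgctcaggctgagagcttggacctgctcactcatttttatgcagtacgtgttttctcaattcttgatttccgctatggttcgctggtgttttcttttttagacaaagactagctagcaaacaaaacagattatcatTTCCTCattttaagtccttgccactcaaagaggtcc

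Motifs were searched as exact letters on both strands in windows of 300 bases around the gene starts. Of the 37 members 28 had an entry, with 37 promoters in all, since some had more than 1. The octamer ATGCAAAT was in 1.74% of all 32851 promoters and in 2.7% of member promoters (1 member). The E box CAGGTG was in 20.2% of all and 37.8% of member promoters (12 members). The PU box GAGGAA was in 28.3% and 29.7% (11 members). The palindrome CCCNNGGG was in 13.7% of all and 16.2% of member promoters (6 members), and the Ikaros core TGGGAA in 25.6% and 32.4% (9 members). The motifs are descriptions of letters and not measured binding.

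Acute libraries held 17.1 to 24.7 M counts (input) and 11.5 to 20.8 M counts (polysomal), and relapse libraries 14.6 to 26 M and 15.5 to 30.4 M. Polysomal libraries of CX5461 lines 14 and 39 stood apart: 443 of the 10574 genes above 2 CPM (counts scaled to library size) in each of the other 10 libraries, Ighd among them, were at 0 in both, and no other single library lacked genes in this way. They correlated at 0.768 to 0.826 with the other 10 libraries, which correlated at 0.928 or more among themselves. The change of each member called in polysomal CX5461 lines is given with and without lines 14 and 39, and counts of such calls include these lines. In the acute input, Gm26870 and Gm10800 took 23.3% and 15% of the counts of CX5461 mice 4 and 6 and 18.4% of everolimus mouse 2. In the acute polysomal RNA, Lars2 and Yam1 took 26.2%, 19.8% and 10.1% of the counts of vehicle mice 2, 5 and 6 and 10.8% of CX5461 mouse 6. No pair of libraries agreed within counting noise. Everolimus mice 1 and 3 came closest in the acute input, with a chi-square of their counts over its degrees of freedom of 2.49 (median of pairs 39.4). On polysomes the same mice were at 65.2. In a fit not planned beforehand, leaving out everolimus mouse 3 gave 0 called members after everolimus in both fractions.

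The samples were checked against markers of other cell types. Summed CPM of 18 T cell markers was 104 to 144 in vehicle nodes and 6.08 to 10.9 in naive lines, and that of 11 myeloid markers was 564 to 669 in vehicle nodes and 6.87 to 7.79 in naive lines. No T cell marker was at 0 in every library of the nodes, and Trbc2 was at 0 in every input library of the lines. Node values thus include RNA of host cells, and the lines hold little of it.

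Levels between genes are compared per kb of exon, as CPM per kb within 1 table. Ighm, the heavy chain of membrane IgM, was the highest member in the input of vehicle nodes at 795 ± 52.1 CPM per kb (SD, n = 6), and also in naive lines at 963 ± 131 (SD, n = 3). Pou2af1, Cd79b and Cd79a followed in nodes at 243 ± 14.1, 231 ± 13.0 and 187 ± 6.07 CPM per kb, and the same genes held the next 3 places in naive lines at 219 ± 18.2, 195 ± 17.2 and 208 ± 37.8. Pou2af1 and Cd79b in nodes, Cd79a and Cxcr4 in nodes, and all 3 in naive lines did not differ beyond their spread. Cxcr4 and Spib came next in nodes at 168 ± 24.2 and 86.3 ± 3.91 CPM per kb.

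The lowest members were genes of follicular and germinal centre B cells. Cr2, the complement receptor CD21, was lowest in nodes at 0.519 ± 0.222 CPM per kb, next to Bcl6, the germinal centre repressor, at 0.864 ± 0.147. In naive lines Fcer2a, the low-affinity IgE receptor CD23, Cr2 and Cxcr5 were at 0.0924, 0.0945 and 0.101 CPM per kb, and their counts per library were 1 to 16 for Fcer2a and 2 to 11 for Cxcr5. The remaining members lay between these ends in both experiments.

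The comparison of clones set the 3 naive clone 107 lines against the 6 vehicle clone 4242 nodes, with counts of both tables scaled together. Clone, growth in culture or in a node, and experiment cannot be told apart here, and a difference may lie in any of them. In the input, 30 of 37 members differed, 21 higher and 9 lower in the lines, where 69% of all genes tested differed (32.1% higher and 36.8% lower). In the polysomal RNA 31 differed, 19 higher and 12 lower, where 74.1% of all genes did (35.4% and 38.7%). Differences are log2 fold changes ± SE from edgeR's quasi-likelihood test with Benjamini-Hochberg adjustment over all genes.

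Of the surface receptors 5 were lower in the lines and 5 higher. Cxcr5, the receptor for the follicle chemokine CXCL13, was at 0.133 to 0.645 CPM in naive lines and at 5.00 to 7.27 CPM in nodes (log2 change -3.76 ± 0.34, adjusted p = 1.1e-06). Fcer2a was at 0.0581 to 0.938 against 2.26 to 4.56 CPM (-3.06 ± 0.55), and Cr2 at 0.599 to 1.51 against 2.31 to 6.75 CPM (-1.99 ± 0.42). The groups did not overlap for any of the 3 in the input. Faim3, the Fc receptor for IgM, changed by -1.86 ± 0.55, Ms4a1, which encodes CD20, by -1.67 ± 0.17, Bcl6 by -1.58 ± 0.24 and Ighd, the IgD heavy chain, by -1.23 ± 0.26. Of the kinases and adaptors, Lyn (-1.36 ± 0.11) and Btk (-0.88 ± 0.14) were lower in the lines, and Pik3cd (0.79 ± 0.11), Blk (0.74 ± 0.08), Pik3ap1 (0.58 ± 0.08), Syk (0.45 ± 0.10) and Plcg2 (0.32 ± 0.11) were higher.

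The members highest in the lines relative to the nodes were a survival receptor, an inhibitory receptor and lineage factors. Tnfrsf13c was at 71.9 to 90.8 CPM in naive lines and at 20.9 to 28.1 CPM in nodes (1.76 ± 0.12). Tcf3 was at 705 to 1070 against 293 to 337 CPM (1.62 ± 0.13), and Cd22, an inhibitory coreceptor, at 337 to 395 against 120.3 to 136 CPM (1.501 ± 0.08). All 3 ranges were apart. Irf4, a factor of activated B cells and plasma cells, differed by 1.09 ± 0.11, Pax5 by 1.08 ± 0.11, the repressor Bach2 by 0.97 ± 0.20, the inhibitory receptor Cd72 by 0.91 ± 0.07 and Spib by 0.85 ± 0.10. Ighm differed by 0.73 ± 0.12, Cd79a by 0.61 ± 0.11, Foxo1 by 0.57 ± 0.14, Cd40 by 0.52 ± 0.16, Ikzf3 by 0.48 ± 0.20, Tnfrsf13b by 0.35 ± 0.12 and Pou2af1 by 0.30 ± 0.10.

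Not every member kept this pattern on polysomes, as the plot of clone differences shows. The interferon regulatory factor Irf8 was higher in the lines in the input (0.42 ± 0.09) and lower in the polysomal RNA (-0.29 ± 0.10). Spib, at 0.85 in the input, did not pass in the polysomal RNA (0.17 ± 0.08, adjusted p = 0.089), and neither did Blk (0.12 ± 0.07), Pik3cd (0.05 ± 0.09), Syk (0.07 ± 0.08) and Tnfrsf13b (-0.02 ± 0.08), which were higher in the input. Blnk (-0.03 ± 0.09) and Pou2f2 (0.20 ± 0.10) did not pass in the input and were lower in the polysomal RNA (-0.30 ± 0.12 and -0.27 ± 0.09). Ikzf1, Ebf1, Cxcr4 and Cd79b passed only on polysomes, all higher in the lines, with changes of 0.22 to 0.70, and whether the fractions differ was not tested in this comparison.

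**Figure D1:**
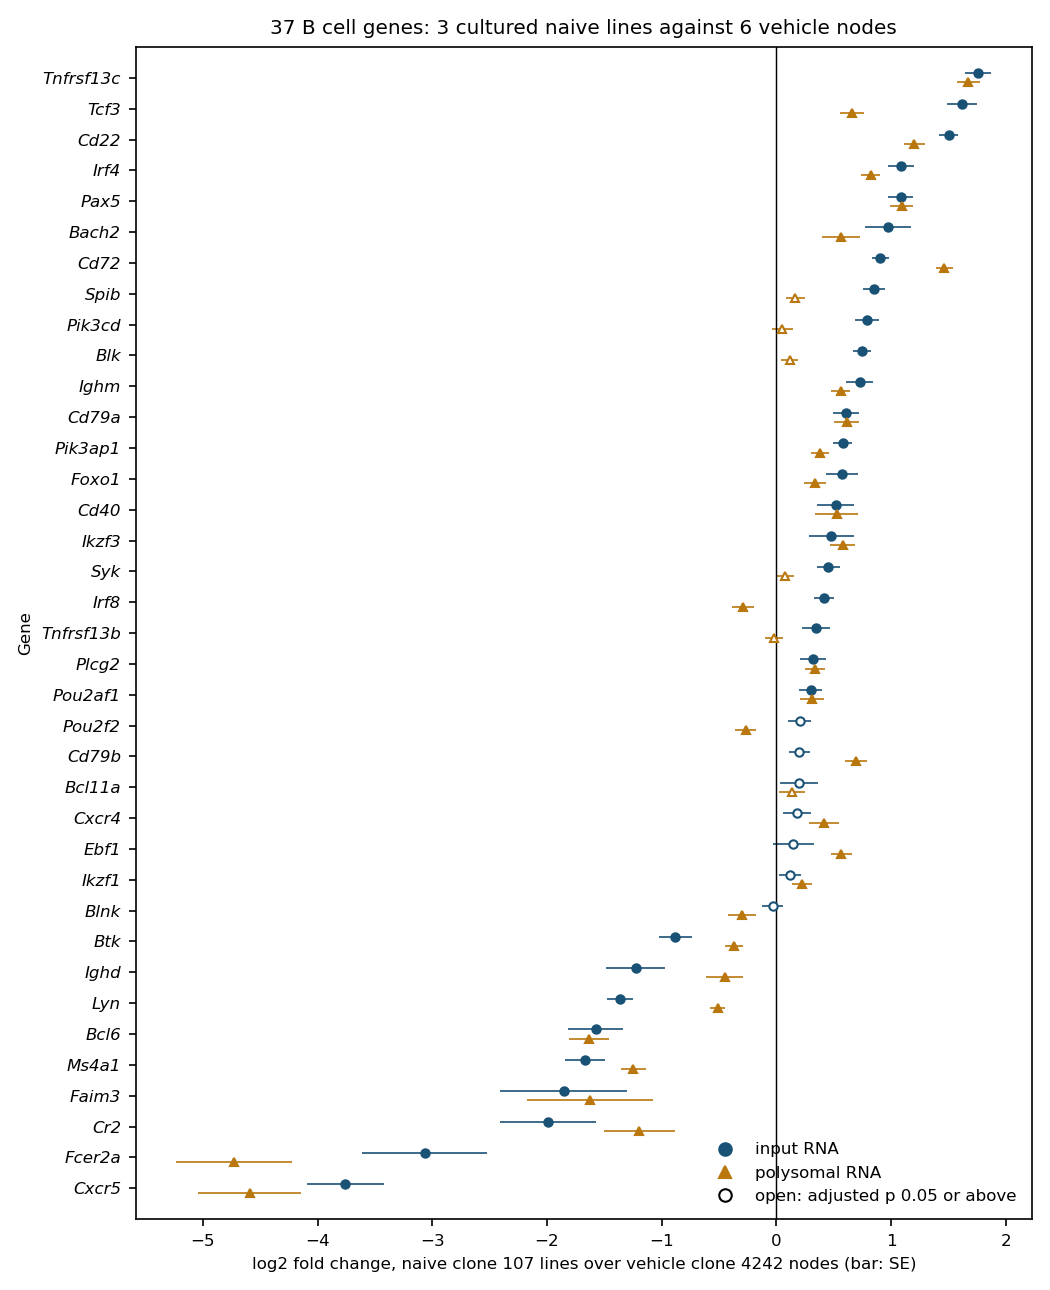
Log2 fold change of each of the 37 genes in 3 naive clone 107 lines over 6 vehicle clone 4242 nodes (x axis), by gene (y axis), for input and polysomal RNA, with bars for the SE and filled symbols for an adjusted p under 0.05. Cxcr5, Fcer2a and Cr2 lie farthest to the left in the input at -3.76, -3.06 and -1.99, and Tnfrsf13c, Tcf3 and Cd22 farthest to the right at 1.76, 1.62 and 1.501.

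The next comparison asks which members were relatively rich or poor in RNA with at least 4 ribosomes, in a fit that kept the 2 libraries of each mouse or line together. In vehicle nodes 26 of 37 members differed between fractions, 13 higher and 13 lower in the polysomal RNA, where 56.9% of all genes differed (24.7% higher and 32.2% lower). In naive lines 16 differed, 6 higher and 10 lower, where 44.1% of all genes did (23% and 21.1%). These are ratios relative to other transcripts, since each library is scaled to its own total.

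A set of 5 receptor and kinase genes was higher in the polysomal RNA of both. Tnfrsf13c was 0.57 ± 0.07 higher (log2) in nodes and 0.52 ± 0.16 in naive lines, and Cr2 0.46 ± 0.11 and 1.34 ± 0.30. Lyn was 0.39 ± 0.06 higher in nodes and 1.30 ± 0.10 in lines, Cd72 0.39 ± 0.05 and 1.00 ± 0.13, and Btk 0.36 ± 0.06 and 0.96 ± 0.13. Lower in both were Cxcr4 (-0.60 ± 0.06 in nodes and -0.31 ± 0.09 in lines), Ighm (-0.38 ± 0.05 and -0.48 ± 0.13), Spib (-0.32 ± 0.04 and -0.95 ± 0.10), Blnk (-0.22 ± 0.05 and -0.44 ± 0.16), Cd22 (-0.20 ± 0.04 and -0.44 ± 0.12) and Irf4 (-0.15 ± 0.04 and -0.35 ± 0.12).

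Another 3 members passed in both but in opposite directions. Cd79b was lower on polysomes in nodes (-0.26 ± 0.06) and higher in naive lines (0.29 ± 0.10), while Tcf3 was higher in nodes (0.28 ± 0.06) and lower in lines (-0.61 ± 0.21), as was Blk (0.23 ± 0.05 and -0.34 ± 0.10). The difference between nodes and lines was not tested. Pik3cd, the catalytic subunit p110δ, and Irf8 were lower in lines (-0.80 ± 0.12 and -0.61 ± 0.10) and did not pass in nodes (-0.11 ± 0.05 and 0.05 ± 0.05). Another 12 members passed in nodes and not in lines. Ikzf3 (0.19 ± 0.05), Tnfrsf13b (0.17 ± 0.06), Bach2 (0.17 ± 0.05), Foxo1 (0.14 ± 0.05), Ikzf1 (0.14 ± 0.04) and Syk (0.12 ± 0.04) were higher on polysomes there, and Faim3 (-0.45 ± 0.09), Ms4a1 (-0.43 ± 0.06), Ebf1 (-0.35 ± 0.07), Pou2af1 (-0.26 ± 0.04), Pax5 (-0.22 ± 0.05) and Plcg2 (-0.14 ± 0.05) were lower. The plot of polysomal against input RNA shows all 37 values.

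**Figure D2:**
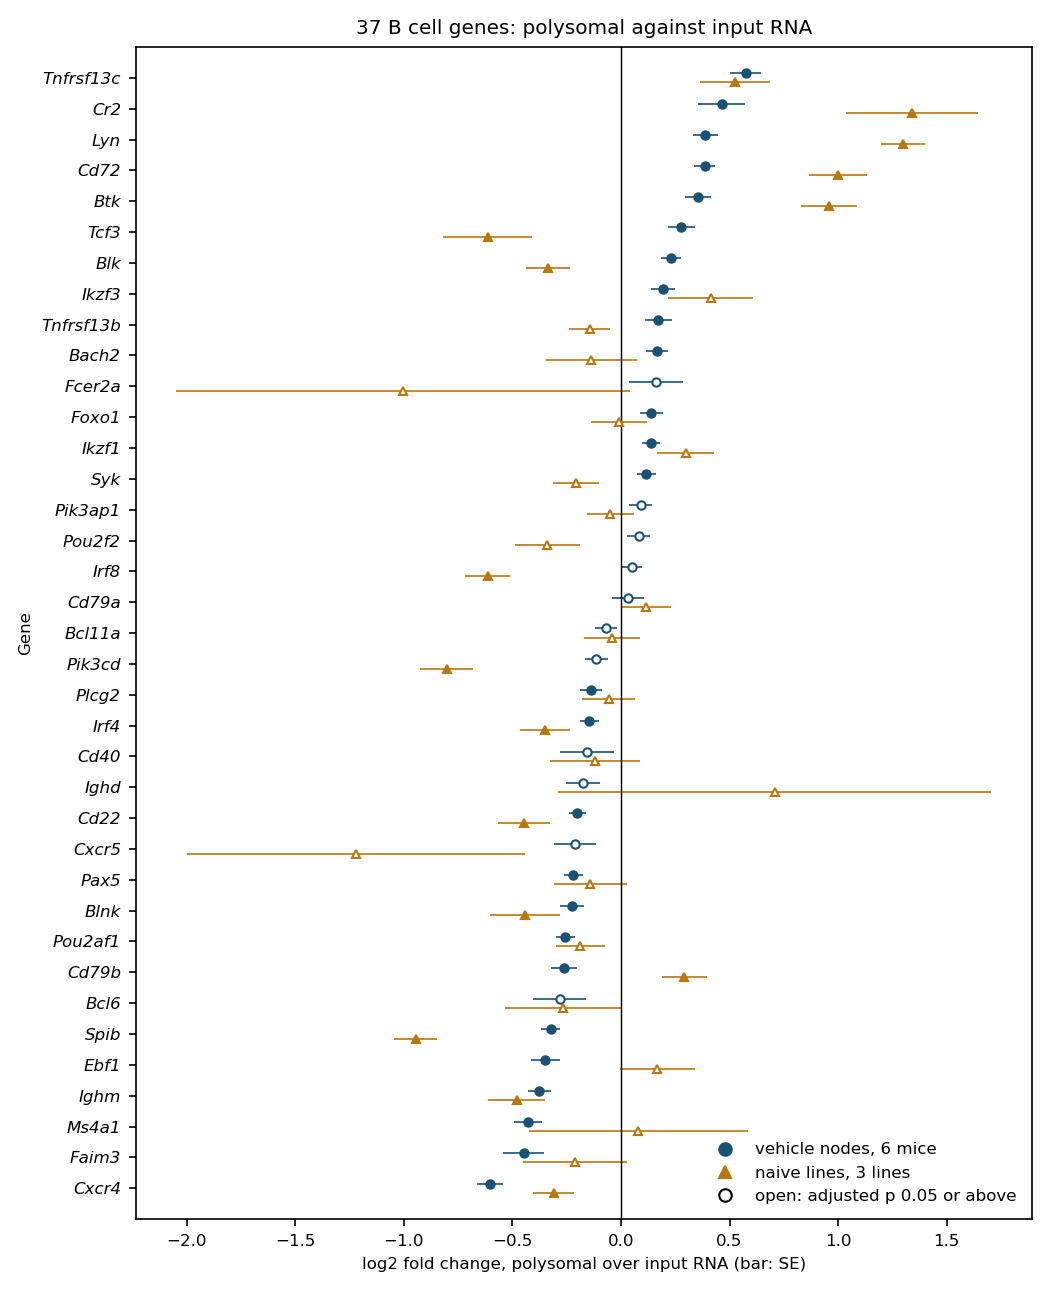
Log2 fold change of polysomal over input RNA (x axis) for each of the 37 genes (y axis) in 6 vehicle nodes and 3 naive lines, with bars for the SE and filled symbols for an adjusted p under 0.05. Lyn, Cr2, Cd72 and Btk lie to the right in both, at 1.30, 1.34, 1.00 and 0.96 in the lines, and Spib lies to the left in both.

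The acute comparisons ask which members had moved 2 h after a dose, and the members that passed were all surface receptors. In the input, Faim3 fell after CX5461 and after the combination, and Tnfrsf13b and Cxcr4 rose after the combination. In the polysomal RNA, Faim3, Cr2 and Cd22 fell after CX5461, and after the combination Faim3 fell and Cxcr4 rose. No transcription factor, kinase, adaptor, immunoglobulin or CD79 gene passed in an acute comparison. The 3 drug groups share the 6 vehicle mice, so their results are not independent.

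In the input, 1 of 37 members passed after CX5461, where 0.399% of all genes did (0.386% lower), and 29 of the 37 estimates were below 0, with a median of -0.08 against 0.00 over all genes. Everolimus gave 0 called members, where 0.106% of all genes were called, with 5 at an unadjusted p under 0.05 and 0 by DESeq2. The combination gave 3, where 7.48% of all genes were called (4.17% lower), 1 of them lower. In the polysomal RNA 3 members passed after CX5461 (0.878% of all genes, 0.709% lower), 0 after everolimus (0.15% of all genes, with 4 members at an unadjusted p under 0.05 and 0 by DESeq2) and 2 after the combination (7.42% of all genes, 2.95% lower). After the combination the members' share was thus near the background in both fractions.

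Faim3 was at 11.5, 15.3 and 22.0 CPM (lowest, median and highest of 6) in the input of vehicle mice. It was at 6.07, 8.85 and 13.2 CPM after CX5461, and at 6.49, 8.39 and 13.6 CPM after the combination. All 12 treated libraries were below the vehicle mean, with ranges that overlapped. The log2 changes were -0.83 ± 0.18 (adjusted p = 0.0414) and -0.84 ± 0.18 (0.00936). After everolimus Faim3 was at 7.87, 11.7 and 13.6 CPM, also below the vehicle mean in 6 of 6 mice, and did not pass.

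On polysomes Faim3 was at 10.2, 12.9 and 21.2 CPM in vehicle mice and at 6.14, 7.42 and 9.05 CPM after CX5461, ranges that did not overlap (-0.97 ± 0.18, adjusted p = 0.0143). After the combination it was at 6.13, 7.11 and 11.6 CPM (-0.86 ± 0.18, 0.0106), with 6 of 6 libraries below the vehicle mean. The CX5461 calls ended without the libraries rich in single features: without the Gm26870 and Gm10800 libraries the input change was -0.73 (adjusted p = 0.244), and without the Lars2 and Yam1 libraries the polysomal change was -0.97 (0.176). The combination calls were kept without either set.

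Cr2 on polysomes was at 3.42, 7.23 and 10.5 CPM in vehicle mice and at 3.28, 3.61 and 4.70 CPM after CX5461, below the vehicle mean in 6 of 6 mice (-0.91 ± 0.22, adjusted p = 0.0493). Cd22 was at 135, 149 and 161 CPM in vehicle mice and at 109, 119 and 143 CPM after CX5461, again 6 of 6 below the mean (-0.30 ± 0.07, 0.0352). In the input Cd22 was at 127 to 146 CPM in vehicle mice and at 94.9 to 124 CPM after CX5461 without overlap, and it did not pass. Both polysomal calls ended without the Lars2 and Yam1 libraries (Cr2 -0.88, adjusted p = 0.367, and Cd22 -0.25, 0.379) and without vehicle mouse 6 and combination mouse 3 (0.0789 and 0.0684).

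Markers of host T and NK cells moved beside these receptors. Summed CPM of 18 T cell markers in the input was 104 to 144 in vehicle mice, 73.9 to 91.1 after CX5461, 85.1 to 127 after everolimus and 71.7 to 107 after the combination. Of these markers 4 of 18 were lower after CX5461 and 11 of 18 after the combination in the input, and 3 of 18 and 13 of 18 in the polysomal RNA. Of all genes, 0.386% and 4.17% were lower in the input and 0.709% and 2.95% in the polysomal RNA. The sum of 7 NK cell markers was 7.42 to 11.2 in vehicle mice, 5.63 to 7.45 after CX5461 and 4.42 to 6.99 after the combination, and none of either list was at 0 throughout. In the input, 8 recirculating B cell markers summed to 403 to 472 CPM in vehicle mice. Their sum was 387 to 524 CPM after CX5461 and 479 to 502 CPM after the combination. The 11 myeloid markers summed to 564 to 669, 572 to 823 and 526 to 600 CPM in these groups. Naive lines, which hold little host RNA, held 212 to 277 CPM of the 8 recirculating B cell markers in the input. That sum therefore does not report host B cells alone. Fcrl1, which is on that list, was lower on polysomes after CX5461. In bulk RNA, fewer cells of a type and less RNA per cell cannot be told apart, and the part of host B or T cells in the values of Faim3, Cr2 and Cd22 was not tested.

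Cxcr4 and Tnfrsf13b moved the other way. Cxcr4 in the input was at 252, 299.7 and 375 CPM in vehicle mice and at 332, 401 and 538 CPM after the combination, above the vehicle mean in 6 of 6 mice (0.46 ± 0.13, adjusted p = 0.036). On polysomes it was at 189, 245 and 311 CPM and at 299, 355 and 532 CPM (0.59 ± 0.12, 0.00951). The ranges overlapped in both fractions. Tnfrsf13b in the input was at 40.4, 44.2 and 60.4 CPM in vehicle mice and at 50.2, 54.2 and 74.1 CPM after the combination (0.35 ± 0.10, 0.032), overlapping through vehicle mouse 6. The input calls of Cxcr4 and Tnfrsf13b ended when all genes were tested without a filter on low counts (adjusted p = 0.0502 and 0.0534). The plot of acute levels shows every mouse.

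**Figure D3:**
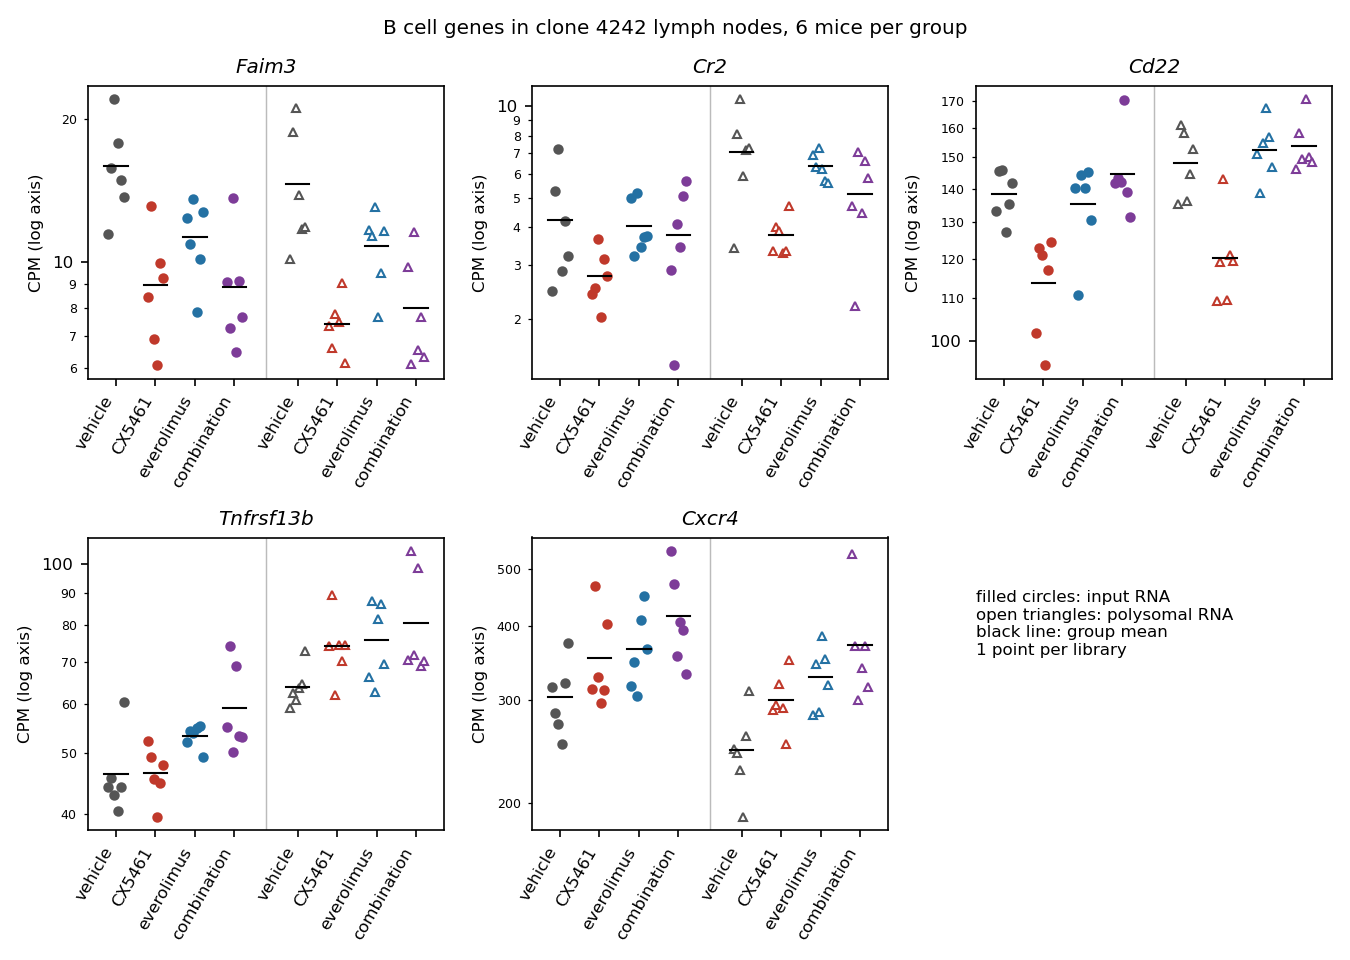
CPM on a log axis of Faim3, Cr2, Cd22, Tnfrsf13b and Cxcr4 in each mouse of the 4 acute groups, 6 per group, as filled circles for input and open triangles for polysomal RNA, with a black line for the group mean. Faim3 of CX5461 and combination mice lies below the vehicle mean in 6 of 6 mice in each fraction, and Cxcr4 of combination mice above it.

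The relapse comparisons ask how lines from treated mice differed from naive lines. Lower Tnfrsf13c was called in all 3 relapse groups in both fractions, and lower Spib in CX5461 and combination lines. CX5461 lines were not tested against everolimus lines. In the input 8 of 37 members passed in CX5461 lines (5 lower, 3 higher), where 8.37% of all genes did (3.76% lower, 4.61% higher), 3 in everolimus lines (1 lower, 2 higher), where 11.7% did (5.46% and 6.25%), and 8 in combination lines (4 lower, 4 higher), where 13.5% did (6.31% and 7.2%). In the polysomal RNA 9 of 36 passed in CX5461 lines, all lower (19.5% of all genes, 8.08% lower and 11.4% higher), 1 in everolimus lines (0.115%) and 4 in combination lines, 3 lower and 1 higher (10% of all genes, 5.22% and 4.78%). The polysomal CX5461 counts, of members and of all genes, include lines 14 and 39, whose libraries stood apart. The groups share the 3 naive lines, so a member that stands apart in those lines passes in several comparisons. Ranges of a relapse group and the naive lines were often apart. In the input, 13.6%, 17% and 15.7% of all genes lay wholly lower in CX5461, everolimus and combination lines, and 13.5%, 18.4% and 17.2% wholly higher. On polysomes these shares were 18.7%, 10.4% and 20% lower and 16.7%, 9.99% and 19% higher.

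**Figure D4:**
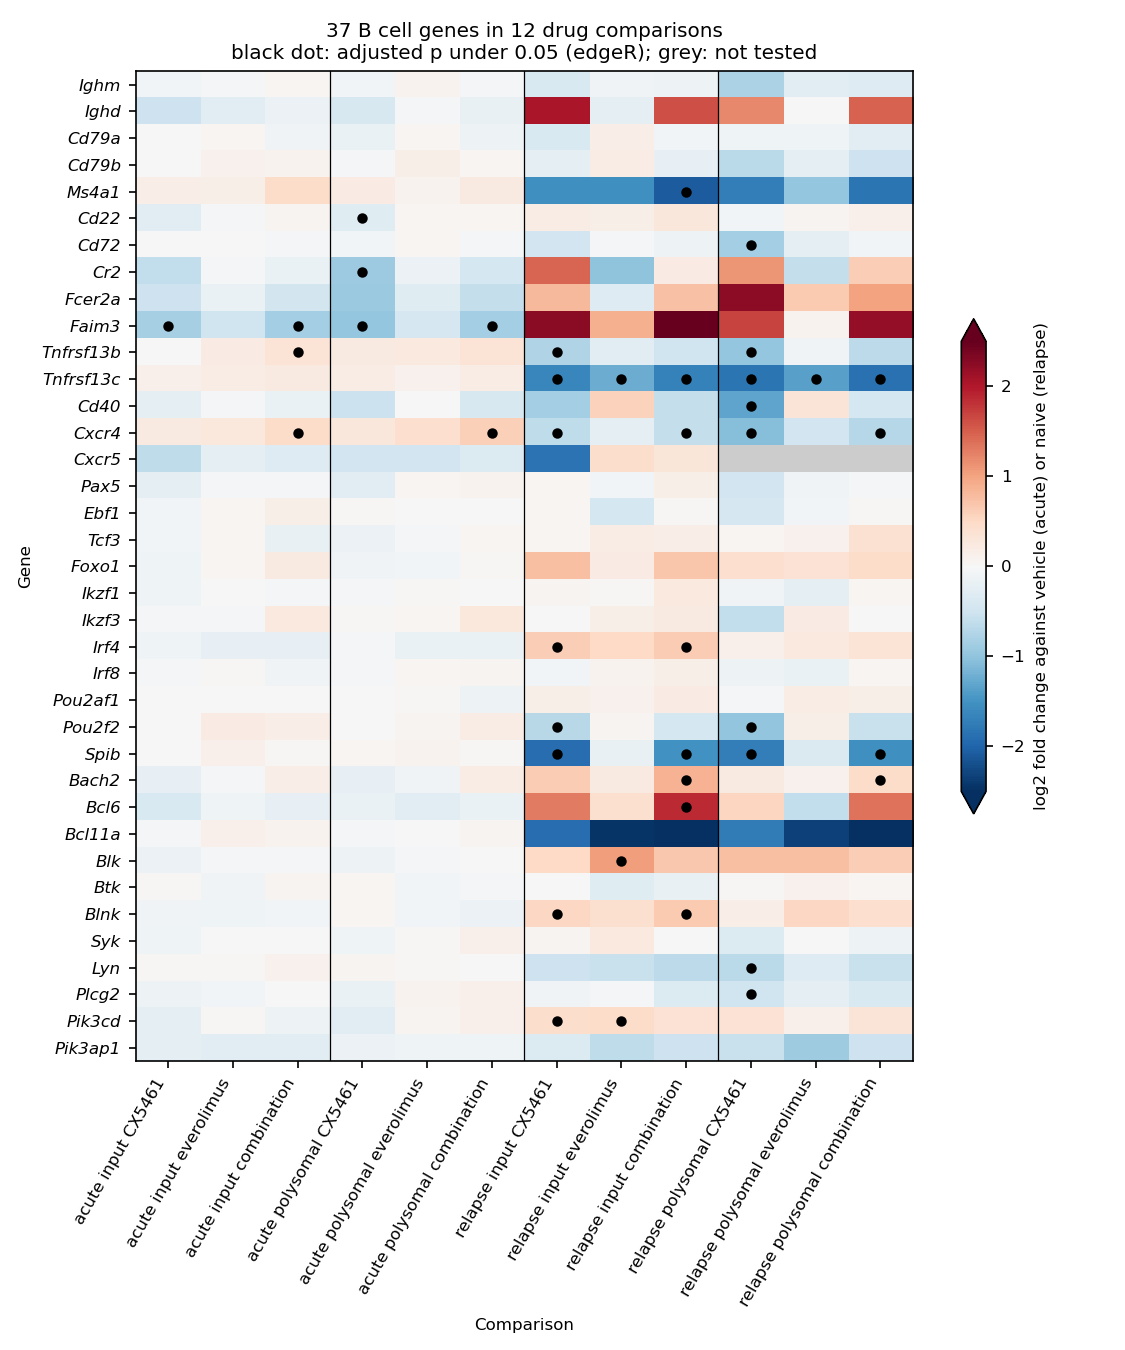
Log2 fold change of the 37 genes (rows of colour) in 12 comparisons of drug groups with vehicle nodes or naive lines, with the colour scale in log2 units, a black dot for an adjusted p under 0.05 and grey for a gene that was not tested. Tnfrsf13c is called in all 6 relapse comparisons, from -1.23 to -1.87, and in none of the acute ones.

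Among surface receptors Tnfrsf13c (chromosome 15, 82221743 to 82224369), whose promoter is printed above, differed most evenly. Its input level was 72.4, 69.4 and 54.0 CPM in naive lines 6, 33 and 38, and 18.8, 27.0 and 17.7 CPM in CX5461 lines 14, 20 and 39. It was 33.8, 25.5 and 23.98 CPM in everolimus lines 4, 12 and 26, and 20.8, 19.6 and 20.1 CPM in combination lines 8, 9 and 31. All 9 relapse lines lay below all 3 naive lines. The input changes were -1.63 ± 0.19 for CX5461 (adjusted p = 0.000873), -1.23 ± 0.19 for everolimus (0.00859) and -1.70 ± 0.19 for the combination (0.000654).

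On polysomes Tnfrsf13c was at 117, 177 and 155 CPM in the naive lines and at 43.9, 45.3 and 37.9 CPM in CX5461 lines. Everolimus lines were at 69.5, 50.02 and 54.3 CPM and combination lines at 52.0, 36.2 and 34.3 CPM, again without overlap. The changes were -1.82 ± 0.21 (adjusted p = 0.00191), -1.37 ± 0.21 (0.042) and -1.87 ± 0.21 (0.00142). Leaving out any 1 line kept the 5 other calls, and it ended that of everolimus on polysomes without naive line 6, 33 or 38 or everolimus line 12 or 26 (-1.52 to -1.24, adjusted p = 0.078 to 0.264). Without the polysomal libraries of lines 14 and 39, which leaves 1 CX5461 line assumed to vary like the others, the CX5461 change was -1.73 ± 0.31 (0.016).

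Cxcr4 was at 249, 261 and 243 CPM in the input of naive lines, 166, 161 and 155 CPM in CX5461 lines, 262, 166 and 217 CPM in everolimus lines and 189.7, 134 and 178 CPM in combination lines. CX5461 and combination lines were all below the naive lines, and everolimus line 4 was above them. The changes were -0.64 ± 0.17 (adjusted p = 0.0384) for CX5461 and -0.59 ± 0.17 (0.0403) for the combination, and each call ended when any 1 of its 6 lines was left out (adjusted p = 0.0533 to 0.168).

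On polysomes Cxcr4 was at 281, 321 and 364 CPM in naive lines, 151, 163 and 147 CPM in CX5461 lines, 275, 182 and 234 CPM in everolimus lines and 228, 161 and 202 CPM in combination lines. All 9 relapse lines were lower than the naive lines. The changes were -1.07 ± 0.17 (adjusted p = 0.00615) for CX5461 and -0.71 ± 0.17 (0.0309) for the combination. The first call was kept without any single line and ended without lines 14 and 39 (-0.99, 0.064), and the second ended without naive line 33 or 38 or combination line 9 or 31 (-0.73 to -0.58, 0.0842 to 0.126).

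Tnfrsf13b, the second BAFF-binding receptor, was at 48.4, 41.4 and 39.4 CPM in the input of naive lines and at 20.6, 33.6 and 22.9 CPM in CX5461 lines (-0.75 ± 0.18, adjusted p = 0.027). The call ended without naive line 6 or 33 or CX5461 line 14 or 39 (-0.77 to -0.62, 0.0635 to 0.1185). In everolimus lines it was at 38.3, 35.0 and 34.2 CPM and in combination lines at 35.6, 28.8 and 26.6 CPM, so that all 9 relapse lines lay below the naive lines. On polysomes naive lines were at 64.4, 63.1 and 57.1 CPM and CX5461 lines at 26.4, 44.0 and 24.4 CPM (-0.96 ± 0.20, 0.0137), and the change was -0.49 (0.132) without lines 14 and 39. The polysomal call also ended without naive line 33 or 38 or either of lines 14 and 39 (-1.01 to -0.79, 0.0507 to 0.0602).

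Ms4a1 was at 10.9, 8.48 and 5.51 CPM in the input of naive lines and at 2.45, 1.66 and 1.76 CPM in combination lines (-2.09 ± 0.61, adjusted p = 0.0426). The call ended when any 1 of these 6 lines was left out (-2.31 to -1.86, 0.0512 to 0.1465). CX5461 lines 14 and 39 were at 0.725 and 1.62 CPM and line 20 at 6.42 CPM, and everolimus lines were at 4.06, 2.73 and 1.86 CPM. Line 20 thus lay within the naive range while the other CX5461 lines lay below it, and without line 20 the CX5461 change in the input passed (-2.82, adjusted p = 0.00486). On polysomes the change was -5.20 (8.11e-05) without line 20, a setting that leaves only the libraries of lines 14 and 39 and calls 8970 of 15260 genes, and -0.23 (0.894) without lines 14 and 39.

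Polysomal RNA of CX5461 lines held 2 further surface receptors below the naive lines. Cd40, the receptor for T cell help, was at 5.73, 7.96 and 4.70 CPM in naive lines and at 1.86, 3.53 and 1.97 CPM in CX5461 lines (-1.33 ± 0.38, adjusted p = 0.0362). Cd72 was at 215, 255 and 225 CPM and at 104, 189 and 95.7 CPM (-0.84 ± 0.25, 0.0397). In both, line 20 was nearest to the naive lines, and the changes were -0.81 (0.438) and -0.30 (0.541) without lines 14 and 39. Leaving out any 1 of the 3 naive lines, line 14 or line 39 also ended both calls (adjusted p = 0.0675 to 0.134 for Cd40 and 0.069 to 0.15 for Cd72).

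Faim3 and Ighd ranged widely among lines. Faim3 was at 7.93, 1.11 and 0.661 CPM in the input of naive lines, 2.60, 40.9 and 3.53 CPM in CX5461 lines, 6.63, 9.01 and 2.42 CPM in everolimus lines and 26.8, 32.0 and 10.7 CPM in combination lines. Combination lines were all above the naive lines, and neither the combination (2.83 ± 1.09, adjusted p = 0.102) nor CX5461 (2.26 ± 1.08, 0.23) passed. Ighd was at 10.5, 6.62 and 4.10 CPM in naive lines, 15.1, 63.5 and 9.63 CPM in CX5461 lines and 33.8, 13.3 and 17.9 CPM in combination lines (CX5461 2.05 ± 0.63, 0.0655). Line 20 was the highest line for both genes.

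On polysomes Ighd had 0 counts in CX5461 lines 14 and 39 and 120.05 CPM in line 20, against 21.5, 16.1 and 14.6 CPM in naive lines. The same lines had 354 and 232 Ighd counts in the input, so their polysomal zeros go with the set of genes missing from those libraries. Ighm was at 2016, 1895 and 1539 CPM in the input of naive lines and at 1007 to 2001 CPM over the 9 relapse lines, and it did not pass in any relapse comparison. Ighm and Ighd lie next to each other and share primary transcripts, and how reads were split between them is not given in the sources used here.

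Among transcription factors Spib (chromosome 7, 44525993 to 44532071) was at 295, 371 and 314 CPM in the input of naive lines and at 83.4, 102.9 and 75.8 CPM in CX5461 lines. Everolimus lines were at 354, 239.7 and 266 CPM and combination lines at 110.3, 79.7 and 152 CPM. Lines from mice given CX5461, alone or combined, lay below all naive and everolimus lines. The changes were -1.90 ± 0.23 (adjusted p = 0.00125) for CX5461 and -1.52 ± 0.23 (0.00286) for the combination. Everolimus lines did not pass against naive lines, and the combination lines were lower than the everolimus lines (-1.33 ± 0.23, 0.0301).

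Spib on polysomes was at 274, 281 and 247 CPM in naive lines, 84.2, 80.3 and 76.2 CPM in CX5461 lines, 243, 174 and 204 CPM in everolimus lines and 84.7, 61.2 and 132 CPM in combination lines. The changes were -1.74 ± 0.24 (adjusted p = 0.00326) and -1.53 ± 0.24 (0.00481), and -1.74 ± 0.36 (0.0269) for CX5461 without lines 14 and 39. Leaving out any 1 line kept the 4 calls against naive lines. The call of combination against everolimus ended without everolimus line 4 or 26 or combination line 8 or 9 (-1.38 to -1.12, 0.0827 to 0.133). It also ended with only the groups compared. On polysomes all everolimus lines lay below the naive lines too, and they did not pass against them.

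Pou2f2 was at 70.8, 67.9 and 61.2 CPM in the input of naive lines and at 34.2, 48.8 and 40.0 CPM in CX5461 lines, all lower (-0.70 ± 0.16, adjusted p = 0.0193). On polysomes it was at 87.5, 81.1 and 81.0 CPM and at 30.7, 67.1 and 28.5 CPM (-0.98 ± 0.28, 0.0358). Line 20 was nearest to the naive lines in both fractions. The input call ended without naive line 33 or CX5461 line 14 or 39 (0.0677 to 0.0971), and the polysomal change was -0.32 (0.426) without lines 14 and 39. The polysomal call also ended without any 1 of the 3 naive lines, line 14 or line 39 (0.0814 to 0.132). Combination lines also lay below all naive lines and did not pass. They were at 54.6, 39.9 and 52.2 CPM in the input and at 56.8, 51.1 and 62.7 CPM on polysomes. Everolimus lines overlapped the naive lines in both fractions.

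Irf4, Bach2 and Bcl6 rose. Irf4 was at 406, 319 and 320.2 CPM in the input of naive lines, 547, 485 and 566 CPM in CX5461 lines, 537, 415 and 532 CPM in everolimus lines and 531, 486 and 614 CPM in combination lines. All 9 relapse lines lay above the naive lines, and Irf4 passed in CX5461 (0.61 ± 0.16, adjusted p = 0.033) and combination lines (0.64 ± 0.16, 0.0204). Each call ended without naive line 33 or 38, the first also without CX5461 line 14 or 39 and the second also without combination line 8 or 31 (0.56 to 0.63, 0.0547 to 0.1185). On polysomes Irf4 did not pass in any relapse group, at 419 to 445 CPM in naive lines and 443 to 594 CPM in relapse lines.

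Bach2 in the input was at 279, 155 and 156 CPM in naive lines and at 299, 350.0 and 429 CPM in combination lines (0.87 ± 0.23, adjusted p = 0.0295), and on polysomes at 228, 307 and 283 CPM and at 377, 357 and 396 CPM (0.46 ± 0.12, 0.0402). The groups did not overlap, although naive line 6 came close in the input. CX5461 lines were at 296, 333 and 288 CPM for Bach2 in the input, also all above the naive lines, and did not pass. The input call ended without naive line 33 or 38 or any combination line (0.73 to 0.96, 0.0534 to 0.0968), and the polysomal one without any 1 of the 6 lines (0.0567 to 0.127). Bcl6 was at 1.86, 1.01 and 1.37 CPM in naive lines and at 1.93, 9.52 and 4.05 CPM in combination lines (1.87 ± 0.47, 0.0227), and without combination line 9 the change was 1.08 (0.11). That call also ended without naive line 33 or 38 (1.69 and 1.85, 0.0746 and 0.0616). CX5461 lines were at 3.58, 3.47 and 3.44 CPM for Bcl6 in the input, all above the naive lines, and did not pass.

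Bcl11a, a zinc finger factor of early B cells, had large differences that did not pass. In the input it was at 33.2, 20.5 and 18.5 CPM in naive lines, 3.11, 14.5 and 2.07 CPM in CX5461 lines, 7.34, 4.62 and 1.30 CPM in everolimus lines and 6.76, 4.04 and 0.799 CPM in combination lines. All 9 relapse lines were below the naive lines, while lines within a group differed by several fold. The changes were -1.90 ± 0.78 (adjusted p = 0.163), -2.45 ± 0.81 (0.0673) and -2.64 ± 0.81 (0.0502), and DESeq2 gave adjusted p = 0.0411 and 0.0266 for the last 2. Without CX5461 line 20 the CX5461 change was -3.22 (0.0258). On polysomes the pattern of levels was alike, from 41.6, 32.2 and 34.2 CPM in naive lines to 1.07 CPM in combination line 31.

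Among kinases and adaptors Blnk (chromosome 19, 40928927 to 40994535) rose in the input of CX5461 and combination lines. It was at 81.0, 65.1 and 63.1 CPM in naive lines, 95.3, 106 and 98.02 CPM in CX5461 lines, 93.7, 93.7 and 88.9 CPM in everolimus lines and 122, 110.0 and 96.9 CPM in combination lines. All 9 relapse lines lay above the naive lines. The changes were 0.51 ± 0.13 (adjusted p = 0.03) for CX5461 and 0.65 ± 0.13 (0.00772) for the combination. The combination call was kept without any single line, and the CX5461 call ended without naive line 33 or 38 or any CX5461 line (0.45 to 0.54, 0.0788 to 0.109). Polysomal Blnk did not pass in any relapse group. It was at 98.4, 81.6 and 65.6 CPM in naive lines and at 65.1, 135 and 75.9 CPM in CX5461 lines. Combination lines were at 106, 121 and 102 CPM.

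Pik3cd was at 208, 251 and 216 CPM in the input of naive lines, 318, 294 and 304 CPM in CX5461 lines, 311, 319.9 and 298 CPM in everolimus lines and 303, 302 and 268 CPM in combination lines. All 9 relapse lines lay above the naive lines, and it passed in CX5461 (0.44 ± 0.12, adjusted p = 0.0382) and everolimus lines (0.46 ± 0.12, 0.0297). The calls ended without naive line 6 or 38 or any line of the treated group (0.36 to 0.49, 0.0662 to 0.165). Blk, a Src family kinase, was at 51.5, 44.8 and 47.3 CPM in naive lines and at 88.1, 99.4 and 107 CPM in everolimus lines (1.04 ± 0.25, 0.0251), and it did not pass without any naive line or everolimus line 12 or 26 (0.97 to 1.06, 0.0591 to 0.0898). In combination lines Blk was at 87.0, 42.4 and 100.2 CPM, with line 9 below the naive lines. Neither Pik3cd nor Blk passed on polysomes in any relapse group. Polysomal Pik3cd was at 184 to 239 CPM in naive and 218 to 298 CPM in relapse lines. Polysomal Blk was at 57.5 to 64.0 CPM in naive lines and 86.5, 106 and 108 CPM in everolimus lines.

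Lyn and Plcg2, encoding phospholipase Cγ2, fell in the polysomal RNA of CX5461 lines. Lyn was at 123, 132 and 127 CPM in naive lines and at 68.9, 101 and 69.4 CPM (-0.67 ± 0.17, adjusted p = 0.0246), and Plcg2 at 464, 532 and 463 CPM and at 349, 345 and 335 CPM (-0.50 ± 0.13, 0.0276). Everolimus and combination lines were also below the naive lines for both, at 74.0 to 116 CPM for Lyn and 300.4 to 425 CPM for Plcg2, and did not pass. Without lines 14 and 39 the changes were -0.34 (0.396) for Lyn and -0.50 (0.212) for Plcg2. Both calls also ended without naive line 33 or 38 or CX5461 line 14 or 39, and that of Lyn without naive line 6 (0.0513 to 0.105 for Lyn and 0.076 to 0.103 for Plcg2).

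Of the members outside these results, Cd79a, Cd79b, Cd22, Cr2, Fcer2a, Cxcr5, Pax5, Ebf1, Tcf3, Foxo1, Ikzf1, Ikzf3, Irf8, Pou2af1, Btk, Syk and Pik3ap1 did not pass in any relapse comparison with naive lines. Cd79a was at 248, 358 and 306 CPM in the input of naive lines and at 169 to 389 CPM over the 9 relapse lines, which overlapped. Pik3ap1, the adaptor BCAP, was lower in all 9 relapse lines on polysomes. In the input 3 of 37 members were lower in all 9 relapse lines (Tnfrsf13b, Tnfrsf13c and Bcl11a), where 5.64% of all genes were, and 3 were higher (Irf4, Blnk and Pik3cd), where 6.73% were. On polysomes 8 of 36 were lower in all 9 lines (Ms4a1, Tnfrsf13c, Cxcr4, Spib, Bcl11a, Lyn, Plcg2 and Pik3ap1), where 4.55% of all genes were, and 0 were higher, where 3.93% were. The 9 lines include CX5461 lines 14 and 39, whose polysomal libraries stood apart, and these shares were not computed without them.

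**Figure D5:**
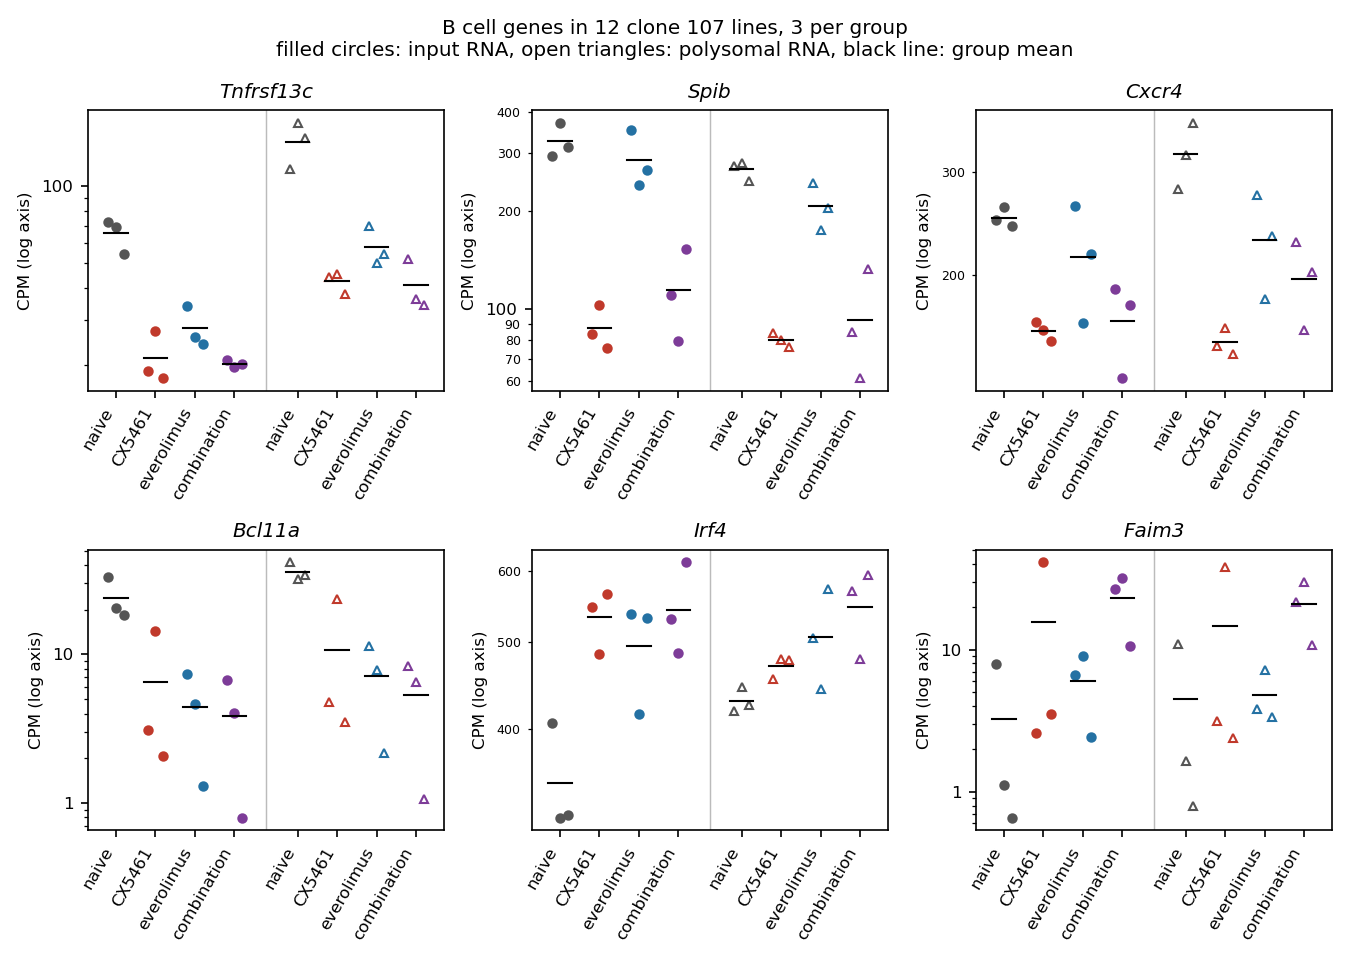
CPM on a log axis of Tnfrsf13c, Spib, Cxcr4, Bcl11a, Irf4 and Faim3 in each of the 12 relapse lines, 3 per group, as filled circles for input and open triangles for polysomal RNA, with a black line for the group mean. Tnfrsf13c and Bcl11a of all 9 relapse lines lie below the naive lines in both fractions, Spib is low in CX5461 and combination lines, and Faim3 ranges from 2.60 to 40.9 among CX5461 lines in the input.

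The columns of each relapse table form runs in which the treatment names start again, and differences within runs are given because the runs may be batches, which the labels do not say. In the input, the Tnfrsf13c difference from naive lines within the first and second run was -1.74 and -1.42 for CX5461, -1.26 and -1.34 for everolimus and -1.60 and -1.85 for the combination. Spib differed by -2.10 and -1.52 for CX5461 and by -1.86 and -0.95 for the combination. Irf4 differed by 0.80 and 0.26 for CX5461, and Blnk by 0.85 and 0.26 for the combination. In the polysomal table CX5461 line 20 is the only CX5461 line in a run with a naive line, with differences of -1.36 for Tnfrsf13c, -1.77 for Spib and -0.79 for Cxcr4. The run was also put as a term in the fit, an alternative chosen after seeing the data. In that fit the polysomal CX5461 change rests on line 20 alone, so its calls are not counted. The changes of Cd72, Tnfrsf13b, Cd40, Pou2f2, Lyn and Plcg2 were then -0.64 to -0.22. Lines 14 and 39 form a run with no naive line, so run and drug cannot be told apart for them.

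The combination lines were compared with each single agent in the input. Against CX5461 lines 0 of 37 members passed, where 0.0207% of all genes did, with 2 at an unadjusted p under 0.05 and 0 by DESeq2. Against everolimus lines 1 passed, where 0.719% of all genes did, and it was Spib. A p that misses the threshold does not show that combination and CX5461 lines were alike in the members.

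Whether a drug moved a member between input and polysomal RNA was tested as the interaction of fraction and treatment. None of the members passed in the 3 acute and 3 relapse tests, where 0% of all genes did. At an unadjusted p under 0.05 there were 1, 3 and 7 members for CX5461, everolimus and the combination in the acute experiment and 13, 3 and 1 in the relapse experiment. DESeq2 called 0 members in 5 of these tests and 7 for CX5461 lines, where the libraries of lines 14 and 39 enter. Without lines 14 and 39 there were 0 called and 1 unadjusted.

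Other genes of the receptor pathway were read from a list of 31 that holds coreceptors, phosphatases, adaptors and NF-κB components. In the acute input 1 was lower after CX5461 and 1 after the combination, in both cases the proton channel Hvcn1 (-0.42 and -0.31), and 0 after everolimus (1 at an unadjusted p under 0.05). Of all genes, 0.386% and 4.17% were lower there after CX5461 and the combination. In the acute polysomal RNA 2 were lower after CX5461, Fcrl1 (-0.45) and Hvcn1 (-0.35), and 0 passed after everolimus or the combination (2 and 6 unadjusted). Of all genes, 0.709% were lower after CX5461, and 0.15% and 7.42% passed after everolimus and the combination. Of 30 tested in the relapse input, 2 were lower in CX5461 lines, 0 passed in everolimus lines (7 unadjusted), and 1 was higher and 3 lower in combination lines. Of all genes, 3.76% were lower in CX5461 lines and 11.7% passed in everolimus lines. In combination lines 7.2% were higher and 6.31% lower. Cd180, a toll-like receptor homologue of B cells, was lower in CX5461 and combination lines (-2.24 ± 0.38 and -1.89 ± 0.38). It was at 17.2 to 28.3 CPM in naive, 2.22 to 7.92 in CX5461 and 5.15 to 6.38 in combination lines. On polysomes 4 were higher and 5 lower in CX5461 lines, 0 passed in everolimus lines (3 unadjusted), and 2 were higher and 4 lower in combination lines, with Cd180 lower in both (-2.13 ± 0.41 and -1.72 ± 0.41).

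Of a list of pro-B and pre-B cell markers, 6 were tested in the relapse input, with 2 higher and 1 lower in CX5461 lines, 1 higher in everolimus lines and 2 higher and 1 lower in combination lines. Of all genes, 4.61% were higher and 3.76% lower in CX5461 lines. In everolimus lines 6.25% were higher, and in combination lines 7.2% were higher and 6.31% lower. Summed CPM of the list was 838 to 972 in naive lines, 564 to 715 in CX5461 lines, 703 to 805 in everolimus lines and 509.6 to 715 in combination lines, lower in each relapse group. Rag1, a recombinase that cuts immunoglobulin genes, was at 5.78 to 8.15 CPM in the input of naive lines, 64.2 to 105.3 in CX5461 lines, 19.6 to 45.0 in everolimus lines and 53.9 to 66.1 in combination lines. The ranges of all 3 relapse groups lay above the naive one (3.56 ± 0.30, 2.21 ± 0.28 and 3.17 ± 0.29). Rag1 thus went against the sum of its list. Of 2 antibody constant genes tested, 2 were lower in CX5461 lines, 0 passed in everolimus lines (1 unadjusted) and 1 was lower in combination lines. Of all genes, 3.76% were lower in CX5461 lines and 6.31% in combination lines, and 11.7% passed in everolimus lines. Igkc, the kappa light chain constant gene, was at 293 to 411 CPM in naive lines, 59.1 to 80.5 in CX5461 lines and 50.6 to 119 in combination lines (-2.28 ± 0.27 and -1.93 ± 0.26). Everolimus lines were at 189 to 216 CPM for Igkc and did not pass. Of 9 genes of class II antigen presentation, which mature B cells carry, 6 were lower after CX5461 and 7 after the combination in the acute input. Of all genes, 0.386% and 4.17% were lower there. In CX5461, everolimus and combination lines 0, 0 and 3 of the 9 were higher. In the relapse input 4.61%, 6.25% and 7.2% of all genes were higher in these groups. Summed CPM of the 9 genes in the relapse input was 318 to 427 in naive lines and 295 to 2481 in CX5461 lines. It was 807 to 1138 in everolimus lines and 1045 to 1806 in combination lines, all above the naive lines, so 0 called genes does not show equal levels.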

How the data were processed

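RNA was measured by ribodepleted single-end sequencing of 50 bp reads in 72 libraries, in 4 tables (acute or relapse, input or polysomal). The authors deposited whole-number counts per gene, made with TopHat2, HTSeq and GRCm38 per the submitters' processing notes; versions, annotation and strand setting are not given in the sources used here. Counts that named no gene took 5.79 to 26% of the acute polysomal and 6.07 to 19.7% of the acute input totals and were left out.

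Each table was filtered (filterByExpr), scaled by TMM and tested in R 4.3.3 with edgeR 4.0.16's quasi-likelihood test over all genes and all groups of the table, with Benjamini-Hochberg adjustment and a threshold of 0.05. Polysomal against input, and its interaction with treatment, kept mouse or line as a block. Clones were compared after scaling both tables together. CPM uses TMM library sizes, and CPM per kb the exon length of GENCODE M21. Alternatives were DESeq2 1.42.0, RLE scaling, no filter, only the groups compared, a replicate block and leaving out libraries. Replicates are separate mice or lines.

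All 37 members are named. Values per library are given for members past the threshold against vehicle or naive samples, and changes with their errors for the clone and fraction comparisons, and genes of other lists only past the threshold, at most the 4 largest per list and comparison. The members and lists were chosen with earlier results of these data known. The input and polysomal libraries of 21 of 24 mice, and of 4 of 12 lines, matched each other best. Counting error is small at these depths except for members with few counts.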

Additional observations from a re-analysis of the deposited data

Results flagged for a closer look

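In 5 of the 40 groups of 6 mice checked, 1 mouse lay far from the other 5. The groups cover only members called in acute comparisons, in both fractions of the same mice. They are thus not independent, and the number is not set against chance. Cd22 in the acute input was at 170 CPM in combination mouse 4 and at 131 to 143 CPM in the others, and on polysomes at 143 CPM in CX5461 mouse 3 and at 109 to 121 CPM in the others. Faim3 in the input was at 13.6 CPM in combination mouse 3 and at 6.49 to 9.12 CPM in the others. Tnfrsf13b in the input was at 60.4 CPM in vehicle mouse 6 and at 40.4 to 45.7 CPM in the others. Cxcr4 on polysomes was at 532 CPM in combination mouse 1 and at 299 to 371 CPM in the others.

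Spib differed between combination and everolimus lines in the input (log2 change -1.33), a difference that was tested directly.

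Some members moved in opposite directions in nodes at 2 h and in relapse lines, with every treated library on one side of the control mean in each. The difference between the experiments was not tested, and the clones differ. For CX5461 in the input, Tnfrsf13c changed by 0.123 (log2) in nodes and -1.63 in lines, Irf4 by -0.113 and 0.613, and Pik3cd by -0.217 and 0.439. For the combination in the input, Faim3 changed by -0.844 and 2.83, Tnfrsf13b by 0.351 and -0.507, and Cxcr4 by 0.459 and -0.588. On polysomes Cxcr4 changed by 0.281 and -1.07 for CX5461 and by 0.593 and -0.707 for the combination, and Faim3 by -0.855 and 2.21 for the combination. Of these values the acute ones past the threshold are those of the combination, and the relapse ones past it are those of Tnfrsf13c, Irf4, Pik3cd and Cxcr4.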

How the results depend on the processing

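Values here are numbers of members past the threshold, and the cause of a change was not tested. With DESeq2 they were 5 (1 with edgeR) and 5 (3) for CX5461 in the acute input and polysomal RNA, 4 (2) for the combination on polysomes, 8 (3) and 13 (8) for everolimus and the combination in the relapse input, 15 (9), 2 (1) and 10 (4) for CX5461, everolimus and the combination on relapse polysomes, and 7 (0) for the interaction in CX5461 lines. Without a filter on low counts they were 1 (3) for the acute input combination, 6, 13 and 5 for everolimus, the combination and combination against everolimus in the relapse input, 10 (16) for polysomal against input in naive lines and 2 (0) for the interaction in CX5461 lines. With only the groups compared they were 0 for CX5461 in the acute input, 3 for CX5461 and 0 for combination against everolimus in the relapse input, and 4, 4 and 12 for CX5461, everolimus and the combination on relapse polysomes.

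The run of columns as a term and leaving out polysomal lines 14 and 39 were chosen after seeing the data. With the run of columns as a term the relapse input gave 14, 12, 17 and 3 for CX5461, everolimus, the combination and combination against everolimus. Relapse polysomes gave 5 for everolimus and 15 for the combination. The Ms4a1 change in polysomal CX5461 lines, which rests on line 20 in that fit, went from -1.73 to 0.0101. Without polysomal lines 14 and 39 there were 2 for everolimus and 11 for the combination. No polysomal count is given for CX5461 in either setting, since its change then rests on 1 line. Leaving out libraries with high Gm26870 and Gm10800 gave 0 for CX5461 in the acute input. Without those rich in Lars2 and Yam1 the acute polysomal counts were 0 for CX5461 and 4 for the combination. Without vehicle mouse 6 and combination mouse 3 the combination gave 5 in each fraction. Leaving out 1 line at a time gave 2 to 11, 1 to 3 and 3 to 7 for CX5461, everolimus and the combination and 0 to 1 for combination against everolimus in the relapse input, and 3 to 20, 0 to 1 and 2 to 3 on relapse polysomes. It gave 8 to 13 for polysomal against input in naive lines, 0 to 15 for the interaction in CX5461 lines, and 27 to 30 and 24 to 30 for the clones.

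Same-numbered mice of different groups did not deviate together (mean correlation 0.0115 in the input and -0.0265 on polysomes). With the number as a replicate block the acute input gave 1, 0 and 3 and acute polysomes 3, 0 and 3 for CX5461, everolimus and the combination, and Cr2 on polysomes after CX5461 had adjusted p = 0.0539. Without the block of mouse or line, polysomal against input gave 17 in nodes and 8 in naive lines. Depth limits Fcer2a, Cxcr5 and Cr2 in the lines. The clone comparison was not run without the Gm26870 and Gm10800 libraries, since none of them is a vehicle library.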
